A study of Mus musculus with 32 samples.

Results

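The claudin genes Cldn2, Cldn3, Cldn4, Cldn5, Cldn7, Cldn8, Cldn10, Cldn15, Cldn18 and Cldn23 were followed along the mouse gut, chosen by symbol from the gene tables. They are 10 of the 26 claudin symbols and of 23236 gene symbols in all. All 10 had a value in each of 32 libraries of total RNA, given as FPKM, a level that allows for transcript length and sequencing depth. The libraries came from wild-type mice and from percc1-/- mice, which per the labels are homozygous for a deletion that leaves a loxP site. The targeted W4/129S6 embryonic stem cells gave a line on a mixed 129Sv and C57 background, kept by brother-sister crosses, and both genotypes are taken as labelled. Each genotype had 1 library of each of 16 region and stage combinations, which make 16 pairs. Small intestine gave 7 pairs (top part at P1, P5 and P15, bottom part at P1, P5, P10 and P20). Stomach gave 5 (whole at P1 and P5, bottom part at P10, P15 and P20). Large bowel gave 3 (colon with rectum at P1, colon and rectum apart at P5), and whole gut at E14.5 gave 1. The labels do not say whether libraries came from separate or pooled animals, or whether regions of a stage share animals, so p-values measure the spread between libraries, which may be partly technical.

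Claudins are membrane proteins that span the membrane several times and meet their partners on the next cell to form the strands of the tight junction, the seal between neighbouring epithelial cells. Some act mainly as barriers and others form pores that let selected ions or water pass between cells, so the set that a tissue makes shapes its permeability. The small intestine is known as a leaky epithelium and the stomach lining as a tight one.

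The files hold no counts, so depth is seen only through the bounds deposited with each FPKM. For the 196 values of these claudins at 5 FPKM or more, the median distance from the value to its bound was 9.98% of the value. For the 43 values above 0 and under 1 FPKM it was 87.2%, so small differences between low values could not be resolved. Markers of another gut region reached thresholds chosen after the values were seen in 6 of the 16 percc1-/- libraries and in none of wild type. These were percc1-/- top intestine at P1 and P5, bottom intestine at P5, whole stomach at P1 and P5, and colon at P5, and results were computed with and without them. The deletion is given as 1512 bp at chr17:25175032-25176543 on mm9. Of the percc1-/- libraries, 4 held records without a symbol wholly within that stretch, and no wild-type library did. On GRCm38 these coordinates would lie in Percc1, so the stated build is in doubt, and they do not check the genotype labels. No record had the symbol Percc1. In the mm9 window between Clcn7 and BC003965, known from earlier results on these data, records without a symbol occurred in 6 wild-type libraries, the 5 of stomach among them, and in no percc1-/- one.

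Across regions the claudins fell into an intestinal group, a stomach gene and a few that varied less. In the newborn gut at P1 and P5 (18 libraries), 8 of 10 differed between stomach and small intestine: Cldn2, Cldn3, Cldn4, Cldn7, Cldn8 and Cldn15 were lower in stomach, and Cldn10 and Cldn18 were higher. Of 13171 genes tested, 43.4% were called in this comparison, 23.6% higher and 19.8% lower in stomach. The median difference was -1.15 on the log2 scale for the 10 claudins and 0.03 for all genes tested. Between large bowel and small intestine 4 of 10 differed, with Cldn8 and Cldn10 higher and Cldn2 and Cldn15 lower, against 37.8% of all genes. Cldn10 was high enough to be tested only through stomach and large bowel, as described below. In both comparisons small intestine was the mean of its top and bottom parts. A gene was called at an adjusted p under 0.05 by limma on log2(rescaled FPKM + 1), a scale on which folds of low genes are understated. In these bulk samples, fewer cells of a type and less RNA per cell cannot be told apart.

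**Figure D1:**
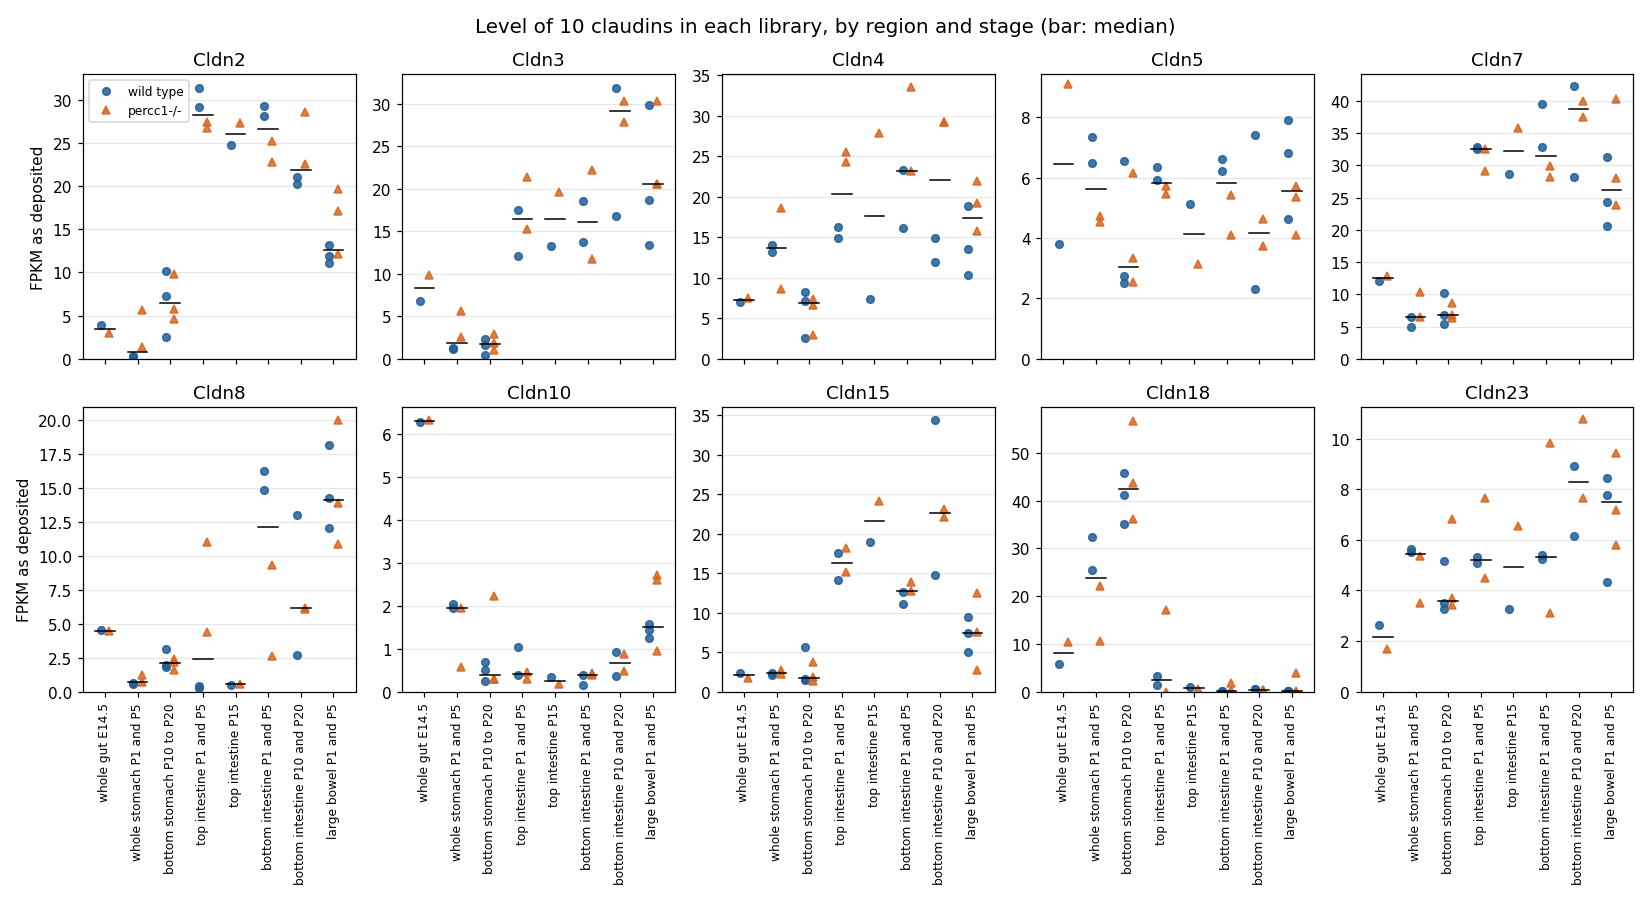
FPKM as deposited (vertical axes, each from 0) of 10 claudins in 8 region and stage conditions, with 1 point per library, circles for wild type, triangles for percc1-/- and a bar at the median. Cldn18 is high in stomach, Cldn2, Cldn3, Cldn7 and Cldn15 are high in intestine, and Cldn5 overlaps between all neighbouring conditions when ordered by median.

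Cldn18, known as the claudin of the stomach lining and of the lung, is encoded at chr9:99589880-99617686 on mm9, minus strand. In whole stomach it had 25.4 FPKM at P1 and 32.5 at P5 in wild type, and 10.6 and 22.1 in percc1-/-. In bottom stomach the 6 libraries lay between 35.1 and 56.8 FPKM, with a median of 42.5. Every stomach library but the percc1-/- whole stomach at P1 lay above all libraries of other regions. In wild-type intestine it had 3.22 FPKM in the top part at P1, 1.48 at P5 and 1.05 at P15, and from 0.0527 to 0.525 FPKM in the bottom part. In large bowel the median of 6 libraries was 0.0638 FPKM, and percc1-/- rectum at P5 was listed at 0. Stomach exceeded small intestine at P1 and P5 by 3.30 ± 0.62 on the log2 scale (SE, limma adjusted p = 0.000476).

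In 3 percc1-/- libraries outside stomach, Cldn18 stood beside stomach or forestomach markers. Percc1-/- top intestine at P1 had 17.0 FPKM of Cldn18 and 25.1 FPKM of Atp4b, a subunit of the acid pump of parietal cells. Percc1-/- top intestine at P5 had 0.0202 FPKM of Cldn18. Percc1-/- colon at P5 had 3.92 FPKM of Cldn18 and 6.42 of Atp4b. Percc1-/- bottom intestine at P5 had 1.87 FPKM of Cldn18 and 31.1 of Krt4, a keratin of squamous epithelium. Summed over the 12 stomach gland and pit markers, the percc1-/- libraries of top intestine at P1 and P5 ranged from 5.16 to 271.0 FPKM, and the wild-type ones from 115.0 to 121.0. Without the 6 libraries that held markers of another region, the stomach difference was 3.93 ± 0.20 (adjusted p = 8.78e-07). Large bowel and small intestine did not differ by the test in Cldn18 (-0.73 ± 0.55, adjusted p = 0.318), but did without these libraries (-0.87, adjusted p = 0.00282). Top then also exceeded bottom intestine (1.53, adjusted p = 0.0216). The part of these markers in the values was not tested.

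The Cldn18 record pools 2 annotated start sites, so its FPKM does not say which was used. The 2 listed promoters of Cldn18, and those of Cldn2 and Cldn15, which are low in stomach, are shown to set members with opposite patterns side by side. They are RefSeq promoters on GRCm38.p6, 250 bases before to 50 after the start, 5′ to 3′ on the gene's strand. Capitals mark matches on either strand to 3 short motifs. The core of a Cdx site was searched as TTTAT. Part of an Hnf1 site was searched as GTTAAT. The GATA site was searched as GATAA, whose matches can overlap those of the Cdx core.
Cldn18, upstream start, chr9:99717218-99717517, minus strand: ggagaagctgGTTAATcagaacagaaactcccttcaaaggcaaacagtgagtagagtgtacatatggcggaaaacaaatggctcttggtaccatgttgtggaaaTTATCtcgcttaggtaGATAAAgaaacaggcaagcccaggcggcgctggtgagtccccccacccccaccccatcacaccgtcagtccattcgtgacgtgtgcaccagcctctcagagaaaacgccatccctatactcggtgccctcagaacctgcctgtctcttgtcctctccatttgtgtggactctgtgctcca
Cldn18, downstream start, chr9:99710014-99710313, minus strand: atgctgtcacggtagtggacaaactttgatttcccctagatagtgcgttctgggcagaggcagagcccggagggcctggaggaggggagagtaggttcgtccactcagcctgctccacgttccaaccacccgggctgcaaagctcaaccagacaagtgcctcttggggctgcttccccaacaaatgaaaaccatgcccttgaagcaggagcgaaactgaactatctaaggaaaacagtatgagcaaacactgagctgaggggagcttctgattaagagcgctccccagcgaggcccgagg
Cldn2, chrX:139800558-139800857, plus strand: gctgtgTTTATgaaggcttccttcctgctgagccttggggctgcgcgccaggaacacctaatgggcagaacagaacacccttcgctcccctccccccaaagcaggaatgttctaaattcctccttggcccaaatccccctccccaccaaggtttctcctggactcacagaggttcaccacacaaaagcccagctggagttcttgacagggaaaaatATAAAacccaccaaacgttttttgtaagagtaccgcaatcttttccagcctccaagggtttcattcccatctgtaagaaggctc
Cldn15, chr5:136967619-136967918, plus strand: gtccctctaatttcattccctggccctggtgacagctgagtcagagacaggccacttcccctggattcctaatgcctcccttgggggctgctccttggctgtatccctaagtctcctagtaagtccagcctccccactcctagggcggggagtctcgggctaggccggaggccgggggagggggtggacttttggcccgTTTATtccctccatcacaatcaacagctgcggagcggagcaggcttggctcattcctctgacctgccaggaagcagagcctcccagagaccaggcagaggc

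The upstream Cldn18 window held 1 match to the Cdx core, 1 to the Hnf1 motif and 2 to the GATA motif, and the downstream window held none of them. Cldn2 held 2 matches to the Cdx core and Cldn15 held 1. The Cdx core was found in 4 of the 11 promoters listed for 8 of the 10 claudins and in 40.0% of all 32851 promoters of the table. The Hnf1 motif was in 2 of the 11 and in 7.1% of all, and the GATA motif in 2 of the 11 and in 25.4%. A match is a description of the letters, not a binding site. Which of the Cldn18 windows serves stomach was not measured, so the upstream matches are not tied to its stomach level.

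Cldn2, which forms a pore for cations and water, had the lowest difference of the 10 between stomach and small intestine at P1 and P5. It lies at chrX:136335367-136345925 on mm9, plus strand. In wild-type whole stomach it had 0.285 FPKM at P1 and 0.209 at P5. The percc1-/- libraries had 5.66 and 1.38, with 13.6 FPKM of Fabp6, a gene of the lower small intestine, in the first and 8.22 of Car1, a gene of the large bowel, in the other. Summed over 9 liver markers, whole stomach ranged from 24.0 to 283.0 FPKM in percc1-/- and from 33.7 to 39.5 in wild type. The part of these markers in the Cldn2 values was not tested. In small intestine at P1 and P5 Cldn2 had 26.7 to 31.4 FPKM in the top part and 22.8 to 29.3 in the bottom part, with no overlap with stomach. Large bowel lay in between, at 11.1 to 19.7 FPKM (median 12.7, 6 libraries), apart from both bottom intestine at P10 and P20 above it and bottom stomach below it. The stomach difference was -3.64 ± 0.30 (adjusted p = 3.3e-07), a 12.5-fold lower level on this scale, and -4.57 ± 0.15 without the 6 libraries. The large bowel difference was -0.85 ± 0.27 (adjusted p = 0.0213). That call was lost without wild-type top intestine at P5 (-0.76, adjusted p = 0.0521) or wild-type bottom intestine at P5 (-0.76, adjusted p = 0.0524), when set relative to 6 epithelial genes (-0.81, adjusted p = 0.0607) and with a pseudocount of 0.1 (-0.88, adjusted p = 0.143).

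Cldn15, a cation pore of the small intestine that lets sodium return to the lumen, lies at chr5:137442486-137451728 on mm9, plus strand. It had 14.2, 17.6, 15.1 and 18.2 FPKM in the 4 top intestine libraries at P1 and P5, and 11.1 to 13.9 in the bottom part. These 2 parts did not overlap, but the top minus bottom test did not call it (0.34 ± 0.30, adjusted p = 1.0). Whole stomach had 2.06 to 2.70 FPKM, and large bowel 2.80 to 12.5 with a median of 7.49. The lowest large bowel values were in rectum, 5.07 FPKM in wild type and 2.80 in percc1-/-. Stomach was lower than small intestine, with a difference of -2.18 ± 0.26 (adjusted p = 9.11e-06), and large bowel was too, with -0.94 ± 0.23 (adjusted p = 0.00517). Unnamed records overlapped Cldn15 in 12 of 32 libraries and were not added to its FPKM.

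Cldn10, whose isoforms form pores for cations or for anions, was low after birth. It lies at chr14:119187093-119274711 on mm9, plus strand, and its record pools 2 start sites. Whole gut at E14.5 had 6.26 FPKM in wild type and 6.31 in percc1-/-, above every later library. Whole stomach at P1 and P5 had 1.94 and 2.03 FPKM in wild type and 1.95 and 0.581 in percc1-/-. Large bowel had 0.948 to 2.70 FPKM, and the 8 small intestine libraries at P1 and P5 had 0.158 to 1.04. Stomach exceeded small intestine by 0.86 ± 0.21 (adjusted p = 0.00359) and large bowel did by 0.94 ± 0.19 (adjusted p = 0.00107). Mean levels at these stages were 1.63 and 1.75 FPKM in stomach and large bowel, and 0.54 and 0.342 in top and bottom intestine. Cldn10 thus passed the filter of a mean of 1 FPKM only through the groups called higher, so these calls are not independent of that filter. It was not tested in the small intestine fits.

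**Figure D2:**
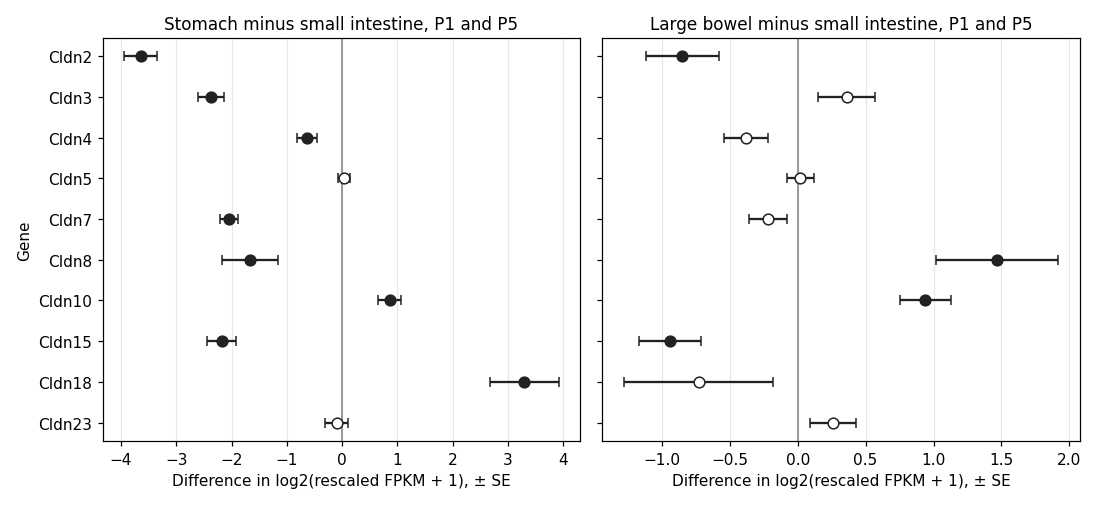
Difference in log2(rescaled FPKM + 1) with its SE, for 10 claudins, between stomach and small intestine (left) and large bowel and small intestine (right) at P1 and P5, with filled points for called genes. Cldn2 has the lowest value at left, -3.64, and Cldn18 the highest, 3.30, while at right Cldn8 has the highest, 1.47, and Cldn15 the lowest, -0.94.

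The barrier claudins Cldn3, Cldn4 and Cldn7 were shared by small and large intestine. Cldn3, with Cldn4 a receptor of Clostridium perfringens enterotoxin, lies at chr5:135462084-135463342 on mm9, 39280 bp from the end of Cldn4 at chr5:135420996-135422804, which is read from the other strand. Cldn3 had 12.1 to 21.4 FPKM in top and 11.7 to 22.2 in bottom intestine at P1 and P5, and 13.4 to 30.3 in large bowel. Whole stomach had 1.25 and 1.16 FPKM in wild type and 5.58 and 2.54 in percc1-/-, all below the intestine. The stomach difference was -2.37 ± 0.24 (adjusted p = 1.78e-06). Large bowel and small intestine overlapped (0.36 ± 0.21, adjusted p = 0.201), and Cldn3 was called only without percc1-/- whole stomach at P1, of the 18 libraries left out in turn (0.33, adjusted p = 0.0344).

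Cldn7, which also sits on the lateral membrane outside the junction, lies at chr11:69778281-69781387 on mm9, plus strand. It was the most abundant of the 10 on average, with a mean of 23.0 FPKM over 32 libraries. It had 28.2 to 39.5 FPKM in small intestine at P1 and P5, 20.6 to 40.3 in large bowel and 4.96 to 10.3 in whole stomach. Stomach did not overlap either, and its difference was -2.05 ± 0.16 (adjusted p = 2.2e-07). Large bowel was not called (-0.22 ± 0.14, adjusted p = 0.252), but was with wild-type libraries alone (-0.38, adjusted p = 0.0179).

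Cldn4 had the smallest stomach difference of the 3. It had 13.2 and 14.1 FPKM in wild-type whole stomach, against 14.9, 16.3, 16.2 and 23.3 in wild-type small intestine at P1 and P5. Percc1-/- libraries had 18.6 and 8.68 in stomach and 24.3, 25.6, 23.2 and 33.6 in small intestine. The stomach difference was -0.63 ± 0.18 (adjusted p = 0.0115). The call was lost with wild-type libraries alone (-0.34, adjusted p = 0.121) and without the 6 libraries (-0.35, adjusted p = 0.0718). The large bowel difference, -0.38 ± 0.16, was not called (adjusted p = 0.0824), but was without percc1-/- whole stomach at P5 (-0.40, adjusted p = 0.00468).

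Cldn8, a barrier claudin of the distal colon and the kidney tubule, lies at chr16:88561073-88563428 on mm9, minus strand, and had a gradient of its own. In wild-type top intestine it had 0.379 FPKM at P1, 0.295 at P5 and 0.479 at P15. In wild-type bottom intestine it had 16.3 at P1, 14.9 at P5, 13 at P10 and 2.72 at P20. Large bowel had 10.9 to 20 FPKM, highest in rectum with 18.2 in wild type and 20 in percc1-/-. Wild-type whole stomach had 0.593 and 0.651 FPKM.

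The percc1-/- libraries of small intestine did not all follow wild type in Cldn8, but the genotype test did not call it (0.36 ± 0.57, adjusted p = 0.876). Top intestine had 11 FPKM at P1 and 4.38 at P5, and 0.578 at P15. Bottom intestine had 2.63 at P1, 9.36 at P5, 6.10 at P10 and 6.19 at P20, below wild type at the first 3 of these stages and above it at P20. The 2 high top libraries also had 14 and 11.7 FPKM of Car1, a carbonic anhydrase of the large bowel, against 0 to 0.098 FPKM in the other 4 top libraries. Percc1-/- top intestine at P1 also had 16.9 FPKM of Fabp6, the bile acid binding protein of the lower small intestine. The part of these markers in the Cldn8 values was not tested.

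Large bowel exceeded small intestine in Cldn8 by 1.47 ± 0.45 (adjusted p = 0.0187), and by 2.32 ± 0.33 (adjusted p = 0.000834) without the 6 libraries. The stomach difference was -1.67 ± 0.51 (adjusted p = 0.015). Top minus bottom intestine was -1.62 ± 0.59 and not called (adjusted p = 0.746), with 0 of 10 claudins and 0.0456% of all genes called. At an unadjusted p under 0.05 there were 1 of the 10 and 728 genes. With wild-type libraries alone Cldn8 was called at -3.59 (adjusted p = 0.000195), and without the 6 libraries at -3.15 (adjusted p = 0.0247).

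**Figure D3:**
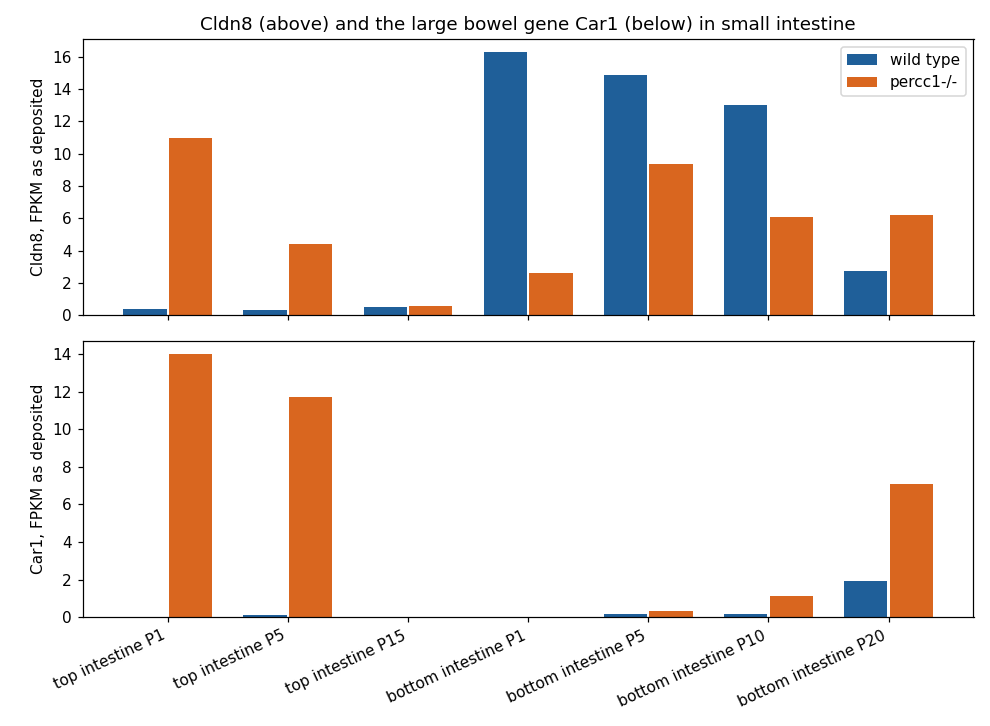
FPKM as deposited of Cldn8 (upper panel) and of the large bowel gene Car1 (lower panel) in the 14 small intestine libraries, with 1 bar per library and colours for genotype. Cldn8 is under 1 FPKM in the top part except in percc1-/- at P1 (11) and P5 (4.38), the 2 top libraries with Car1 above 10 FPKM.

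Cldn5 and Cldn23 did not differ between regions by any of these tests. Cldn5, the claudin of endothelial cells, lies at chr16:18776940-18778353 on mm9, plus strand. It had 4.53 to 7.36 FPKM in whole stomach, 4.09 to 6.62 in small intestine at P1 and P5, and 4.09 to 7.92 in large bowel. The stomach difference was 0.03 ± 0.11 (adjusted p = 0.867) and the large bowel one 0.02 ± 0.10 (adjusted p = 0.88). The summed FPKM of 10 endothelial markers ran from 56.0 to 96.8 in whole stomach, 95.5 to 116.0 in top intestine, 85.0 to 97.0 in bottom intestine and 67.3 to 84.3 in large bowel, which lay below the small intestine. Cldn23 lies at chr8:36887766-36889613 on mm9, minus strand. It had 3.52 to 5.63 FPKM in whole stomach, 3.10 to 9.82 in small intestine at P1 and P5 and 4.35 to 9.43 in large bowel. Its differences were -0.10 ± 0.20 (adjusted p = 0.706) for stomach, a sign that other settings turned, and 0.26 ± 0.17 (adjusted p = 0.265) for large bowel.

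The make-up of the claudin RNA, as shares of the summed FPKM of the 10, set stomach apart. The sum had a median of 64.2 FPKM in whole stomach and 72.8 in bottom stomach, against 135.0 in top and 140.0 in bottom intestine at P1 and P5 and 120.0 in large bowel. Cldn18 held a median of 41.5% of it in whole stomach and 52.9% in bottom stomach, and was the largest share in 3 of 4 and 6 of 6 libraries. In percc1-/- whole stomach at P1 Cldn4 was the largest. Cldn7 was the largest in 3 of 4 bottom intestine libraries at P1 and P5 and in all 16 of top intestine, older bottom intestine and large bowel. In the remaining bottom intestine library Cldn4 was.

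**Figure D4:**
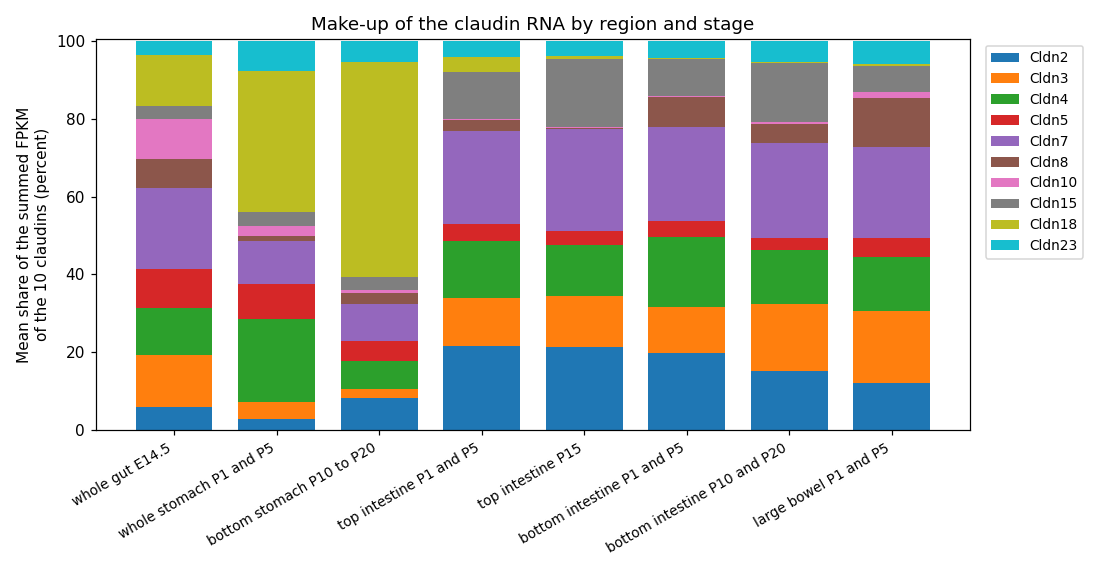
Mean share (percent) of each of 10 claudins in their summed FPKM, over the libraries of each of 8 region and stage conditions. Cldn18 takes 36.0 and 55.2% in whole and bottom stomach, while Cldn2, Cldn3, Cldn4, Cldn7 and Cldn15 make up most of the intestinal bars and Cldn8 takes 12.6% in large bowel.

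Of the 16 other claudins, 4 had a mean of at least 1 FPKM. Cldn25 (mean 8.27) and Cldn12 (7.37) were present throughout, Cldn1 had a mean of 2.21 and Cldn19 of 1.21. This mean over 32 libraries passes over claudins that were high in few conditions. Cldn17 had 1.6 to 7.02 FPKM in whole stomach. In whole gut at E14.5 Cldn6 had 7.85 FPKM in wild type and 13.4 in percc1-/-, and Cldn13 had 7.44 and 5.08. Cldn1, a barrier claudin of squamous epithelia such as skin, was higher in stomach (1.57 ± 0.27, adjusted p = 0.000215). The 8 forestomach markers had a median sum of 237.0 FPKM in whole stomach and 8.56 and 5.44 in top and bottom intestine at P1 and P5. Cldn19 was lower in stomach (-2.0 ± 0.30, adjusted p = 6.9e-05) and in large bowel (-1.88 ± 0.27, adjusted p = 8.75e-05). It averaged 4.62 and 2.93 FPKM in top and bottom intestine at P1 and P5, 0.0641 in whole stomach and 0.162 in large bowel. Cldn19 thus reached the mean of 1 FPKM only through small intestine, so its lower level elsewhere is not independent of that choice. Cldn12 was lower in stomach (-0.38 ± 0.09, limma adjusted p = 0.00261). From P1 and P5 to P10 to P20, Cldn1 fell in small intestine (-0.99 ± 0.24, adjusted p = 0.0325). In stomach, where the dissected part changed with age, Cldn1 fell (-1.74 ± 0.19, adjusted p = 0.000874) and Cldn12 rose (0.51 ± 0.09, adjusted p = 0.00575).

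Partners of the claudins in the tight junction were read from a list of 25 genes. In stomach 2 were higher and 14 lower than in small intestine, with a median of -0.32, where 23.6% of all genes were higher and 19.8% lower. Marveld3, a membrane protein related to occludin, had -2.07 ± 0.14 (adjusted p = 9.71e-08), and Prkcz, an atypical protein kinase C of cell polarity, -1.01 ± 0.16 (adjusted p = 0.000118). Ildr1, an angulin of tricellular junctions, was lower in stomach (-1.13 ± 0.27, adjusted p = 0.00363) and higher in large bowel (1.61 ± 0.24, adjusted p = 0.000145). In large bowel 3 of 25 were higher and 10 lower, where 20% of all genes were higher and 17.9% lower. The 6 measured markers of simple epithelium had 1 higher and 4 lower in stomach, with a median of -0.38. Set relative to those genes, all 8 of these claudins were called again, with Cldn2 at -3.47, Cldn7 at -1.88 and Cldn18 at 3.47.

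With age, 1 of 9 claudins tested was called in small intestine and 4 of 10 in stomach. In small intestine Cldn15 was the only one of 9 tested that was called, rising from P1 and P5 to P10 to P20 by 0.64 ± 0.15 (adjusted p = 0.0282). Of all genes 5.93% were called, 3.47% higher and 2.47% lower. Its older values were 18.9 and 24.2 FPKM in the top part and 14.8, 22.1, 34.4 and 23.1 in the bottom part. Within each part they lay above those of P1 and P5, which were 14.2 to 18.2 in the top part and 11.1 to 13.9 in the bottom part. Of the younger values, the older bottom part overlapped only those of the top part. The call was lost on leaving out any of 7 of the 14 libraries, namely both genotypes of top intestine at P15 and of bottom intestine at P1, wild-type top intestine at P1, wild-type bottom intestine at P5 and percc1-/- bottom intestine at P20. The adjusted p ran from 0.0107 to 0.0727 over the 14 omissions. It was lost too with wild-type libraries alone (0.72, adjusted p = 0.216) and without the libraries holding markers of another region (0.67, adjusted p = 0.0579).

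In stomach Cldn2 (1.47 ± 0.45, adjusted p = 0.0476), Cldn18 (0.75 ± 0.20, adjusted p = 0.0313) and Cldn8 (0.66 ± 0.17, adjusted p = 0.0244) rose from P1 and P5 to P10 to P20. Cldn4 fell (-1.37 ± 0.31, adjusted p = 0.0163). Cldn4 had 8.68 to 18.6 FPKM in whole and 2.52 to 8.22 in bottom stomach, with no overlap. Of all genes 17.1% were called, 8.07% higher and 9.07% lower. The dissected part changed from whole to bottom stomach with age, so age and part cannot be told apart. The 8 forestomach markers had a median sum of 139.0 FPKM in bottom stomach, below that of whole stomach, and the 12 gland and pit markers one of 832.0 against 338.0. With wild-type libraries alone, limma called 0 of the 10, with Cldn18 at 0.35 (adjusted p = 0.249) and Cldn2 at 2.34 (adjusted p = 0.0575). The share of all genes called in that fit was not kept. Without the libraries holding markers of another region, Cldn18 (0.35, adjusted p = 0.227) and Cldn4 (-1.29, adjusted p = 0.135) were not called. Set relative to 6 epithelial genes, Cldn8 (0.42, adjusted p = 0.173) and Cldn2 (1.23, adjusted p = 0.0782) were not called, and Cldn2 was not called with no filter on low values (adjusted p = 0.071).

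Single libraries decided these calls. Cldn2 was lost on leaving out any of 8 of the 10 stomach libraries, all but wild-type bottom stomach at P10 and percc1-/- whole stomach at P1, with an adjusted p up to 0.136. Cldn18 was lost without either genotype of bottom stomach at P15 or P20, or without wild-type whole stomach at P1 (up to 0.0693). Cldn8 was lost without wild-type whole stomach at P1 or P5 or percc1-/- whole stomach at P5 (up to 0.0812), and Cldn4 without percc1-/- whole stomach at P1 (-1.13, adjusted p = 0.0531). Calls were gained for Cldn10 without percc1-/- whole stomach at P5 (-1.01, adjusted p = 0.0418) and for Cldn5 without wild-type bottom stomach at P10 (-0.84, adjusted p = 0.0153) or percc1-/- bottom stomach at P15 (-0.79, adjusted p = 0.05). Between P1 and P5, 0 of 9 claudins were called by limma, with a lowest adjusted p of 0.606. At an unadjusted p under 0.05 there were 0 of them and 1269 genes, and 0.0% of all genes were called.

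The question of the deletion was asked last, with each percc1-/- library set against the wild-type library of its region and stage. Over all 16 pairs limma called 0 of 10 claudins, against 0.887% of all genes. At an unadjusted p under 0.05 there were 1727 of 13084 genes and 2 of the claudins. These were Cldn4 (0.46 ± 0.13, adjusted p = 0.106, higher in 14 of 16 pairs in FPKM and in 12 of 16 after rescaling) and Cldn3 (0.39 ± 0.11, adjusted p = 0.111, higher in 13 of 16 on either scale). Within small intestine limma called 0 of 9 (0.117% of all genes), with Cldn3 and Cldn4 again under an unadjusted 0.05, as were 1286 of 12772 genes. In stomach limma called 0 of 10 (0.0226%), with 1 claudin, Cldn3, and 610 of 13266 genes under an unadjusted 0.05. In large bowel limma called 0 of 9 (0.015%), with 2 claudins, Cldn2 and Cldn4, and 1331 of 13369 genes under an unadjusted 0.05.

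Cldn4 came nearest to the threshold, in small intestine. In wild type it had 14.9, 16.3 and 7.35 FPKM in the top part at P1, P5 and P15, and 16.2, 23.3, 14.9 and 12 in the bottom part at P1, P5, P10 and P20. In percc1-/- it had 24.3, 25.6 and 27.9, and 23.2, 33.6, 29.2 and 29.2. Percc1-/- was higher in 7 of 7 pairs, by 0.60 to 1.76 on the log2 scale, and the groups overlapped only in that the highest wild-type value, 23.3, passed the lowest percc1-/- one, 23.2. The difference was 0.91 ± 0.14 (adjusted p = 0.0546), a 1.88-fold higher level. Without the pairs as a block it was called (adjusted p = 0.0334), as it was without the pair of top intestine at P15 (0.77, adjusted p = 0.0463). Without the pairs that held markers of another region it was 1.10 ± 0.20 (adjusted p = 0.584).

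Elsewhere Cldn4 was less even. In stomach percc1-/- had the higher FPKM in 3 of 5 pairs, and in 2 of 5 after rescaling, with 2.98 to 18.6 FPKM against 2.52 to 14.1. In large bowel it was higher in 3 of 3, with 15.8 to 22.0 against 10.3 to 18.9 (0.37 ± 0.13, adjusted p = 0.484). Whether the difference in small intestine was larger than in these organs was not tested. Tight junction partners had 0 of 25 called by limma in each of the 4 genotype comparisons.

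**Figure D5:**
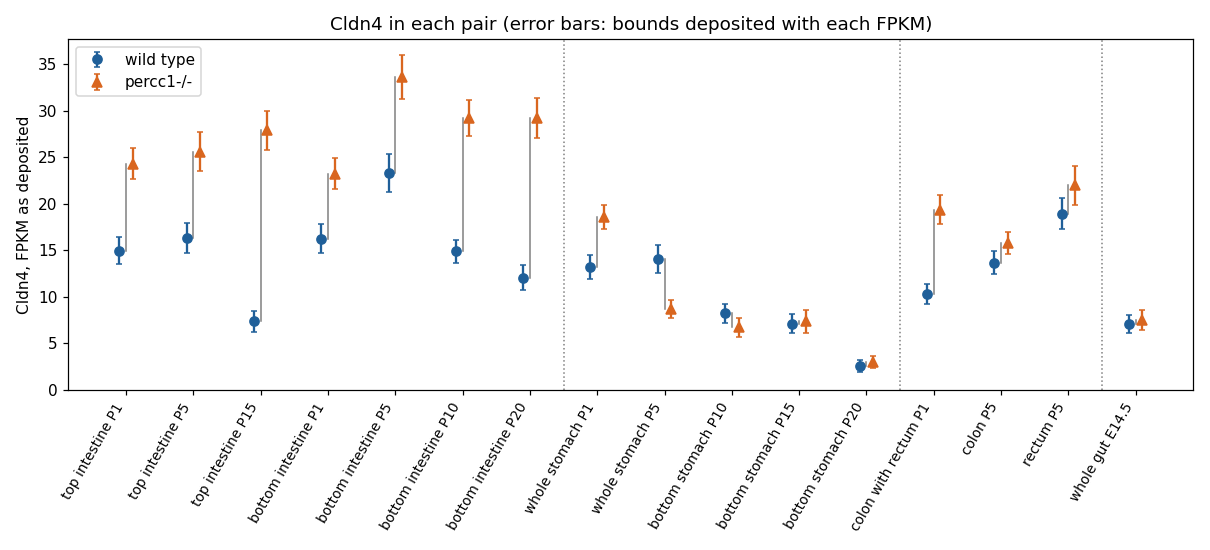
FPKM of Cldn4 in the 16 pairs, circles for wild type and triangles for percc1-/-, with the deposited bounds as error bars and a grey line joining each pair. The percc1-/- point is the higher in 7 of 7 small intestine pairs, left of the first dotted line, and in 3 of 5 stomach pairs.

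Wild-type stomach had 0.429 to 2.32 FPKM of Cldn3 and percc1-/- stomach 1.04 to 5.58, higher in 4 of 5 pairs (0.67 ± 0.27, adjusted p = 0.988). The highest value, 5.58, was in whole stomach at P1, which also had 13.6 FPKM of Fabp6. Liver markers, given above, also varied between the percc1-/- whole stomach libraries, and the part of either in Cldn3 was not tested. Cldn2 in large bowel had 13.2, 11.9 and 11.1 FPKM in wild type and 19.7, 17.1 and 12.1 in percc1-/- (0.33 ± 0.11, adjusted p = 0.461). Cldn7 had a difference of 0.0 ± 0.08 in small intestine (adjusted p = 0.995), and Cldn2 one of 0.01 ± 0.07 (adjusted p = 0.981).

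Whole gut at E14.5, with 1 library per genotype and no test of its own, had Cldn7 as the largest of the 10 claudins, 12.1 FPKM in the wild-type library and 12.9 in the percc1-/- one. Cldn18 had 5.72 and 10.5 FPKM, and Cldn5 3.80 and 9.09. The percc1-/- library had 28.8 FPKM of Sftpc, a lung surfactant protein, and the wild-type library 0.0657. Summed over 8 lung markers they had 42.8 and 1.98 FPKM, with 6 and 0 of 8 reaching 1 FPKM, and summed over 10 endothelial markers 107.0 and 71.5. The part of these markers in the Cldn18 and Cldn5 values was not tested.

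Over all 32 libraries, each claudin was set beside 13084 genes by the Pearson correlation of log2(rescaled FPKM + 1), as a description. The libraries share regions, stages and the rescaling, so the values follow mainly from the regions sampled. Cldn3 and Cldn7 were the most alike (r = 0.96), and Cldn3 and Cldn18 the least (r = -0.91). Nearest to Cldn7 were Clrn3 (0.99), Cdx1 (0.98), a transcription factor of the intestine, and Ush1c (0.98), a brush border protein. Cldn3 was nearest to Tff3 (0.97), Cdx1 (0.96) and Cdh17 (0.96), the intestinal cadherin. Cldn2 was nearest to Cdhr5 (0.93), Gm5485 (0.93) and Cdhr2 (0.92), where Cdhr5 and Cdhr2 are cadherins of the brush border.

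Cldn15 was nearest to Itln1 (0.96), a lectin, and to Btnl3 (0.95) and Ces2e (0.95). Cldn18 was nearest to Barx1 (0.98), a stomach transcription factor, Cst8 (0.96) and Eya2 (0.95). Cldn8 was nearest to Ildr1 (0.82), and Cldn23 to Atp10b (0.86) and Atp2c2 (0.82). Cldn5 was nearest to Cdh5 (0.82), the endothelial cadherin, Cul7 (0.80) and Erg (0.78), an endothelial transcription factor. Cldn4 was nearest to Card14 (0.88), and Cldn10 to 5730494M16Rik (0.89). Cldn5, Cldn10 and Cldn18 had no other claudin of the 10 above 0.37.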

How the data were processed

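Total RNA from 32 gut libraries (1 per genotype, region and stage, grouped by the labels) was analysed from the authors' deposited Cufflinks gene tables, 1 FPKM with bounds per record. Per the labels' protocols, libraries were stranded with ribosomal RNA removed. TopHat2 2.0.13, SAMtools 0.1.18, Cufflinks 2.2.1 and mm9 are named in the submitters' processing notes. Records of one symbol were summed, and symbols in failed or merged records were left missing (2033 of 23236 in some library). Named records held 16.8 to 60.2% of the FPKM sum. Unnamed records were not added, which can lower Cldn15, Cldn18, Cldn7 and Cldn10, each with such records over it in some library.

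Libraries were rescaled by the median ratio over 10023 genes above 1 FPKM in all (factors 0.864 to 1.38). limma 3.58.1 in R 4.3.3 (trended, robust) was fitted to log2(rescaled FPKM + 1) of all genes that averaged 1 FPKM or more in the fit, with two-sided p-values adjusted by Benjamini-Hochberg over all genes. Region fits had stage and genotype as covariates, age fits had genotype (and part, in small intestine), the P1 to P5 fit had region and genotype as a block, and genotype fits had the pair as a block. The pairing rests on the labelled region and stage, not from animals or replicate numbers. Tested on simulated data, the stomach against small intestine fit (13171 genes) recovered 98.5% of changed genes at a log2 change of 2 and the small intestine genotype fit (12772 genes) 95.5%. The large bowel genotype fit (13369 genes) recovered 75.5%, the lowest of the simulated fits. Smaller changes, such as the genotype differences of these claudins, were not simulated. Alternatives were no rescaling, a pseudocount of 0.1, no filter on low values, levels relative to 6 epithelial genes, wild-type libraries only, no block and leaving out each library or pair. A further one, chosen after the values were seen, left out libraries with Car1 or Atp4b at 5 FPKM, or Fabp6 or Krt4 at 10 FPKM, outside their regions. The claudins and gene lists were chosen with earlier results of these data known. Named were the 10 claudins, other claudins averaging 1 FPKM or more, up to 4 called genes of each list and the 3 genes most like each claudin. Cldn6, Cldn13 and Cldn17 were named besides, for their levels in few conditions. Gene positions are from GENCODE M1 on mm9, and promoters from RefSeq on GRCm38.p6.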

Additional observations from a re-analysis of the deposited data

How the results depend on the processing

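Of the alternative values tallied for the claudins and their comparisons, 271 kept their direction and their side of the threshold, 18 lost a call, 15 gained one and 7 changed sign. Omissions of single libraries or pairs entered this tally only through their highest and lowest difference. Most of the calls lost on single omissions, named above, are therefore not in it. The sign changes were all in differences that were never called. Cldn23 in stomach against small intestine had 0.07 relative to epithelial genes, 0.11 without the libraries holding markers of another region, 0.06 with wild-type libraries only and -0.24 to 0.11 on leaving out 1 library. Cldn5 reached -0.01 there on leaving out 1 library, and in large bowel -0.0 without rescaling and -0.08 to 0.08 on leaving out 1 library. Without the libraries holding markers of another region, an alternative chosen after seeing the data, 7 rather than 4 claudins were called in large bowel, 2 rather than 0 between top and bottom intestine, 0 rather than 1 with age in small intestine and 2 rather than 4 with age in stomach. With wild-type libraries only the counts were 1 between top and bottom intestine, and 0 with age in both small intestine and stomach, with fewer libraries in each fit. On leaving out single libraries, the count with age ran from 0 to 1 in small intestine and from 1 to 5 in stomach. For genotype in small intestine, 1 rather than 0 was called with no replicate block for the pairs, and 0 to 1 on leaving out a pair. The block changed no other call. Shares of all genes called were kept only for the main fits. These counts therefore do not show whether the claudins shifted more than other genes. The cause of these shifts was not tested. Low levels, such as Cldn10 after birth and Cldn18 in intestine, are limited by the width of the FPKM bounds.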
